A study of Mus musculus with 28 samples.

Results

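The 77 genes described here carry symbols of mitochondrial ribosomal proteins and were measured in mouse epidermal stem cells. They are the genes whose symbol is Mrpl (large subunit) or Mrps (small subunit) followed by a number and at most 1 letter, that are not pseudogenes and that averaged at least 1 CPM, a count per fixed total of reads, over 16 RNA-seq libraries. Of 78 matching symbols 77 met that level, out of 47729 gene identifiers in the count tables; 29 are Mrps and 48 are Mrpl symbols. Mrpl53, at a mean of 0.0788 CPM, was the 1 symbol outside it, and the lowest members inside it were Mrps36 at 3.89, Mrpl23 at 4.05 and Mrps33 at 4.13 CPM, before composition scaling. The cells were sorted from the epidermis of C57BL/6 mice as positive for integrin alpha 6, integrin beta 1 and Sca1 and negative for CD34; all mice are labelled female and were at postnatal day 60 when treatment began. The mice received topical imiquimod, an agonist of the receptor TLR7 that inflames the skin, or a plain cream (vanicream) as control, for 6 days. Each treatment was sampled at day 6, again 30 days after treatment without injury (day 30), and in skin wounded at day 30 and taken 6 h or 12 h later. This gives 8 groups of 2 libraries: imiquimod and control at day 6, at day 30, in 6 h wounds and in 12 h wounds. The wounded skin that had been treated with imiquimod is called post-imiquimod skin. Of the 28 samples in the series, 12 come from chromatin accessibility assays and were not used.

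Mitochondrial ribosomes sit inside the organelle and translate the few mRNAs of mitochondrial DNA, all of which encode subunits of the respiratory chain and ATP synthase. Their RNAs are transcribed from mitochondrial DNA, but their proteins are encoded in the nucleus, made in the cytosol and imported, so the organelle's translation capacity depends on nuclear genes. By role, 30 members are large subunit proteins with a counterpart in bacterial ribosomes and 20 are large subunit proteins found in mitochondria only. Another 16 are small subunit proteins with a bacterial counterpart and 10 are mitochondrial small subunit proteins. Mrps30 and Mrps18a carry small subunit names but lie in the large subunit in human structures and are counted there. The remaining member, Mrps36, is now known as a component of the 2-oxoglutarate dehydrogenase complex and not of the ribosome.

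Promoter sequences are shown for the 6 members with the largest called rise at day 6, to show which known factor motif, if any, each holds. RefSeq gave a window from 250 bases before to 50 bases after the start for 68 of the 77 members (build GRCm38.p6), and none for Mrpl13, Mrpl15, Mrpl19, Mrpl38, Mrpl4, Mrpl54, Mrps28, Mrps34 and Mrps35. Each line below gives the last 200 bases before the start, 5′ to 3′ on the gene's own strand, with a matched motif in capitals.
Mrpl12 (chr11:120484437-120484636, + strand): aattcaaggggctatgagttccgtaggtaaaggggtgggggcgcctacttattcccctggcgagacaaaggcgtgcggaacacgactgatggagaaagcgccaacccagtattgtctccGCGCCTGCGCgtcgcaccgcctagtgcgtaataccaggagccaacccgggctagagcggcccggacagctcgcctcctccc
Mrps27 (chr13:99344586-99344785, + strand): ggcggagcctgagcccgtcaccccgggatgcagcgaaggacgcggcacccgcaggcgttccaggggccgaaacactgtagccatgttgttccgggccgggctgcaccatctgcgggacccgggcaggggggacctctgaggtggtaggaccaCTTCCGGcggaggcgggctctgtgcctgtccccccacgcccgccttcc
Mrpl20 (chr4:155802678-155802877, + strand): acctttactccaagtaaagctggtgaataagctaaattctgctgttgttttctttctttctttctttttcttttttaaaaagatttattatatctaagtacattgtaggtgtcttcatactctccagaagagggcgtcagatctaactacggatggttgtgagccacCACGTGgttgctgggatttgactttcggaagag
Mrpl42 (chr10:95501950-95502149, - strand): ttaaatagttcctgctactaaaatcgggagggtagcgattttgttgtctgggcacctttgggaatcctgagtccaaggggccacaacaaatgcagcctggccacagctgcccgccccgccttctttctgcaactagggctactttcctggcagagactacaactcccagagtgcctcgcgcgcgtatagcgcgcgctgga
Mrpl34 (chr8:71464726-71464925, + strand): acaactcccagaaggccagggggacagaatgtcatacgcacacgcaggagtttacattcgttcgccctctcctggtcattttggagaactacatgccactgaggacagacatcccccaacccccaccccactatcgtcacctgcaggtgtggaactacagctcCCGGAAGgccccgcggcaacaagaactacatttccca
Mrpl47 (chr3:32736756-32736955, - strand): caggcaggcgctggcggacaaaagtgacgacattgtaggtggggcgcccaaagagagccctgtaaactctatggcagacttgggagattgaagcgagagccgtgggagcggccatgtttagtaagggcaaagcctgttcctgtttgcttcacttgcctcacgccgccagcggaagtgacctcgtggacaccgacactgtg
Capitals mark an NRF1 motif at position -81 in Mrpl12, an ETS motif (the kind bound by GABPA) on the opposite strand at position -48 in Mrps27 and on the gene's strand at position -37 in Mrpl34, and an E-box (the kind bound by MYC) at position -33 in Mrpl20, counted from the start to the motif's first base. Mrpl42 and Mrpl47 have no capitals because these letters do not occur in the stretch shown.

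NRF1 and GABPA are transcription factors known for driving nuclear genes of mitochondrial function. On either strand of the full window, the NRF1 motif (the letters in capitals in Mrpl12, with any base in the fifth place) occurred in 13 of 68 member promoters, or 19.1%, and in 6.6% of the promoters of 17492 protein-coding genes. The ETS letters CCGGAAG occurred in 24 member promoters, or 35.3%, and in 11.9% of all promoters. The motif of YY1, another factor of such promoters, was in 5 member promoters, or 7.35%, and in 1.27% of all. The E-box CACGTG, which reads the same on both strands, was in 5 member promoters, or 7.35%, and in 7.9% of all. The TATA box letters TATAAA were in 4 member promoters, or 5.88%, and in 13.3% of all. NRF1 or ETS letters were in 33 member promoters, or 48.5%, against 17.2% of all promoters. The median share of G and C was 58.2% in member promoters and 56.3% in all promoters. These are matches of letters and say nothing of binding.

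**Figure D1:**
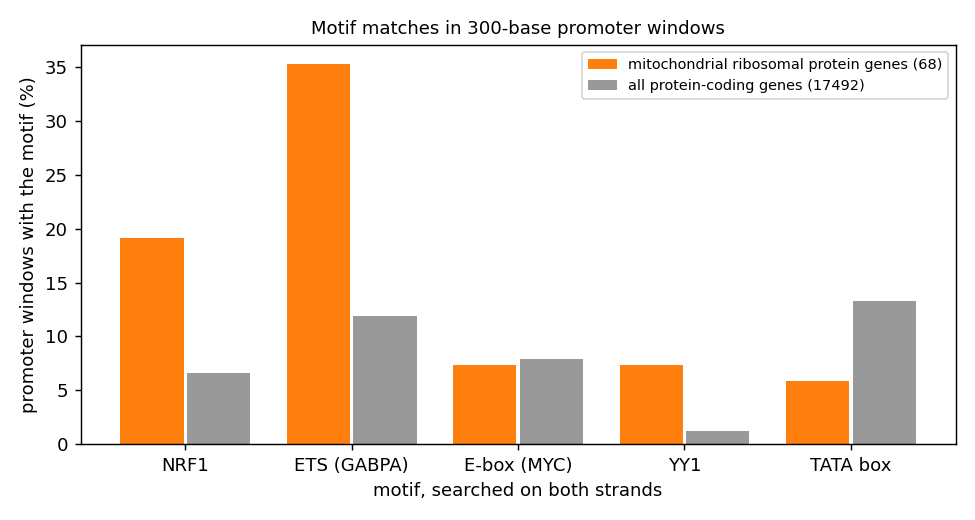
Share of promoters (y axis, percent) that hold each motif (x axis), for 68 mitochondrial ribosomal protein genes and for 17492 protein-coding genes, in windows of 250 bases before to 50 after the start. The ETS letters were in 35.3% of member promoters against 11.9% of all, and the TATA box in 5.88% against 13.3%.

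The libraries held 23623968 to 76993427 gene counts each. Levels are given as CPM scaled for library composition with edgeR's TMM factors, and tests are edgeR's quasi-likelihood test in 1 fit of the 8 groups, with Benjamini-Hochberg adjustment over all 17299 genes tested and a threshold of 0.05; a member is said to rise, fall or change only where it passed. Every member was tested, with mean levels between 3.84 and 87.6 CPM (median 34.4) and no count under 26 in any library. CPM are not divided by transcript length, so levels are compared between groups and not between genes. Nothing in the labels says that the 2 libraries of a group came from separate animals. At day 30 library 1 of each treatment held Y-linked reads and library 2 held Xist, so there the animals differed. The p-values measure the spread between libraries, pooled over the 8 groups, and in the other groups that spread may be technical. The sorted population was bulk RNA, in which fewer cells of a type and less RNA per cell cannot be told apart. Basal keratinocyte markers summed to 37400 to 74600 CPM, whereas T cell markers did not pass 1.28 CPM and neutrophil markers did not pass 0.187 CPM in the groups compared. Some libraries stood apart. Both day 30 libraries numbered 1 held at most 1 read of Xist and 6023 or 7830 reads of Y-linked genes. All mice are labelled female. The day 30 imiquimod library 1 had 148 CPM of fibroblast markers, against 1.65 to 3.98 CPM in the other day 30 libraries. Every day 6 library held more, at 151 to 497 CPM with control cream and 153 to 442 CPM with imiquimod. Cd34, the marker sorted against, was at 2.83 to 11.1 CPM at day 6 and at 0.206 to 2.08 CPM in later libraries. Mitochondrially encoded RNA made up 7.65% of the counts in day 6 imiquimod library 1 and 3.31% in day 6 control library 1, and at most 2.48% elsewhere.

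Day 6 of imiquimod was the largest change of the family against a concurrent control. Of 77 members 70 rose and 0 fell, where 21.6% of all genes tested rose and 15.0% fell. The median log2 change of the members was 0.79, against 0.10 over all genes tested, and 76 of 77 members were higher, as were 54.4% of all genes. Summed over the family, the level was 3296 and 3217 CPM in the imiquimod libraries and 1797 and 1953 CPM in the control libraries, or 3256 ± 55.9 against 1875 ± 110 CPM (SD, n = 2 each). Both imiquimod libraries lay above both control libraries in 73 members, and no member was lower in both; of all genes 38.5% were higher in both and 29.5% lower in both. Without both day 6 libraries numbered 1, which had the highest shares of mitochondrially encoded RNA, 42 members rose, and 44 did when only the day 6 groups were fitted.

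**Figure D2:**
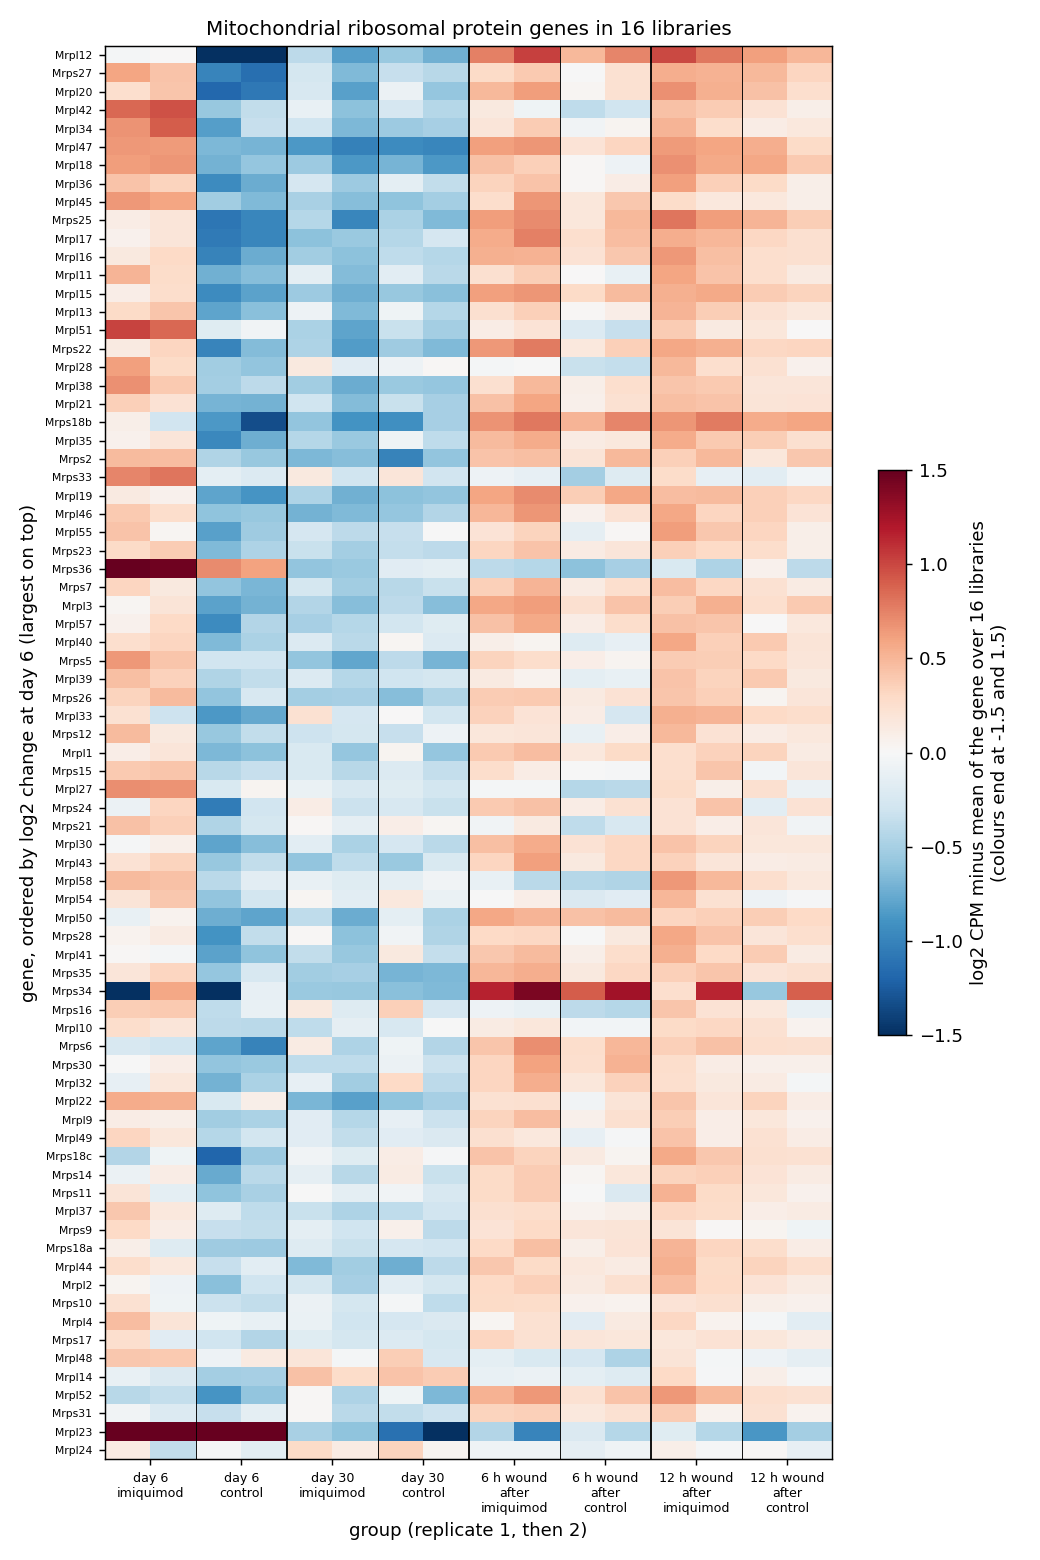
Level of each of the 77 members (rows, ordered by the change at day 6) in each of the 16 libraries (columns, imiquimod beside control at each time), as log2 CPM minus the member's mean over all libraries. Day 6 control has the lowest group mean in 54 members, and 6 h wounds after imiquimod the highest in 30. The same was not counted over all genes.

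Proteins of the large subunit that bacteria share showed the widest range at day 6: 27 of 30 rose, with a median log2 change of 0.92. Mrpl12, the stalk protein that recruits translation factors to the ribosome, had 57.5 and 58.7 CPM in imiquimod libraries and 17.9 and 18.4 CPM in control libraries. Its log2 change of 1.68 ± 0.163 (SE; adjusted p = 1.65e-05), or 3.2-fold, was the largest in the family. The proteins at the base of that stalk rose too: Mrpl11 by 1.08 ± 0.173 (adjusted p = 0.00043) and Mrpl10 by 0.62 ± 0.129 (adjusted p = 0.00247). Mrpl20, an rRNA-binding protein of early assembly in bacteria, had 65.9 and 73.6 CPM in imiquimod libraries and 24.5 and 26.4 CPM in control libraries, a log2 change of 1.45 ± 0.196 (adjusted p = 0.000139). Mrpl34, one of the smallest bacterial-type proteins, had 23.5 and 27.5 CPM in imiquimod libraries and 8.31 and 11.6 CPM in control libraries (1.36 ± 0.198, adjusted p = 0.000221). Mrpl47, which lies near the exit of the peptide tunnel, had 26.4 and 26.2 CPM in imiquimod libraries and 10.5 and 10.4 CPM in control libraries (1.33 ± 0.143 from unrounded values, adjusted p = 3.06e-05). In none of these 4 genes with per-library values did the groups overlap. Mrpl3, a core protein near the peptidyl transferase centre, rose by 0.87 ± 0.135 (adjusted p = 0.000341).

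Of the large subunit proteins found in mitochondria only, 18 of 20 rose, with a median log2 change of 0.73. Mrpl42 had 69.4 and 74.2 CPM in imiquimod libraries and 25.8 and 29.5 CPM in control libraries, a log2 change of 1.38 ± 0.164 (adjusted p = 6.18e-05). Mrpl45, which anchors the ribosome to the inner membrane in human mitochondria, had 53.2 and 51.3 CPM in imiquimod libraries and 23.7 and 21.4 CPM in control libraries (1.21 ± 0.151, adjusted p = 8.2e-05). Mrpl58, also known as ICT1, frees peptides from stalled ribosomes; it had 28.2 and 27.7 CPM in imiquimod libraries and 15.4 and 18.2 CPM in control libraries (0.73 ± 0.148, adjusted p = 0.002). Smaller changes were Mrps18a at 0.50 ± 0.137 (adjusted p = 0.0121) and Mrpl44, which has a ribonuclease III fold, at 0.47 ± 0.147 (adjusted p = 0.0242); the call for Mrpl44 was lost without any 1 of the 4 libraries, and that for Mrps18a without either control library or imiquimod library 1.

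In the small subunit, all 16 proteins with a bacterial counterpart rose at day 6, with a median log2 change of 0.66, and 8 of 10 mitochondrial ones, with a median of 0.92. The first of these counts was 6 without control library 1, 9 without imiquimod library 1 and 10 without imiquimod library 2. Mrps27, a pentatricopeptide repeat protein of the mitochondrial type, had 44.3 and 39.7 CPM in imiquimod libraries and 14.9 and 13.5 CPM in control libraries; its log2 change was 1.56 ± 0.155 from unrounded values (adjusted p = 1.91e-05), or 2.96-fold. Mrps22, a mitochondrial small subunit protein mutated in a human respiratory chain deficiency, had 28.5 and 32.4 CPM in imiquimod libraries and 13.1 and 16.6 CPM in control libraries (1.04 ± 0.163, adjusted p = 0.000385). Mrps12, of the decoding centre, rose by 0.79 ± 0.158 (adjusted p = 0.00185). Mammals have 3 paralogs of the bacterial protein S18, and all 3 rose at day 6: Mrps18b by 0.99 ± 0.203 (adjusted p = 0.00224), Mrps18c by 0.60 ± 0.217 (adjusted p = 0.0454) and Mrps18a as given above. The call for Mrps18c was lost without control library 1 and without imiquimod library 2.

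The 7 members that did not pass at day 6 were Mrpl14, Mrpl23, Mrpl24, Mrpl48, Mrpl52, Mrps31 and Mrps34. Mrpl24 had 70.5 and 50.2 CPM in imiquimod libraries and 64.1 and 58.1 CPM in control libraries, so the groups overlapped. Mrps31 had 19.2 and 17.2 CPM in imiquimod libraries and 15.7 and 18 CPM in control libraries, which also overlapped. The libraries of Mrps34 were far apart within groups, at 1.9 and 12.2 CPM with imiquimod and 1.54 and 7.48 CPM with control cream. Fitting the replicate number as a block assumes a pairing that the labels do not state. With that block Mrpl14 (0.35 ± 0.137, adjusted p = 0.0645 without the block and 0.0255 with it), Mrpl48 (0.36 ± 0.182, adjusted p = 0.143 and 0.0387 with it) and Mrpl52 (0.34 ± 0.198, adjusted p = 0.196 and 0.0143 with it) also passed.

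Markers of other states moved between these 4 libraries as well. All 8 macrophage markers were higher in both imiquimod libraries, summing to 68.5 and 81.8 CPM with imiquimod and 17.1 and 9.49 CPM with control cream. Hair follicle markers summed to 3580 and 1110 CPM with imiquimod and 6800 and 10300 CPM with control cream. Of these 5 markers only 1 was lower in both imiquimod libraries, and 2 were higher in both. All 8 proliferation genes rose, with a median log2 change of 1.11 and sums of 1795 and 2077 CPM with imiquimod and 1063 and 796.6 CPM with control cream. T cell markers, at 0.22 and 0.0952 CPM with imiquimod and 0.283 and 0.57 CPM with control cream, were near 0. The part of these cells and states in the members' levels was not tested.

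By day 30 no member differed between treatments. Summed levels were 2326 and 1983 CPM in imiquimod libraries and 2356 and 2132 CPM in control libraries, or 2154 ± 243 against 2244 ± 158 CPM (SD, n = 2 each), and the groups overlapped. edgeR called 0 members in either direction, where 0.00578% of all genes rose and 0.00578% fell; DESeq2 also called 0, and at an unadjusted p under 0.05 edgeR gave 1 member higher and 0 lower, against 2.08% and 2.06% of all genes. The median log2 change was -0.05, against -0.02 over all genes, and 24 of 77 members were higher, as were 45.5% of all genes. Mrpl12 had 44.5 and 33.1 CPM in imiquimod libraries and 39.8 and 35.5 CPM in control libraries.

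The difference between the day 6 and the day 30 effect was tested directly. It was positive and past the threshold in 56 of 77 members and negative in 0, where 13.7% and 8.82% of all genes passed, with a median log2 difference of 0.87 against 0.10 over all genes. The largest were Mrps27 (1.64 ± 0.218, adjusted p = 0.000453), Mrpl20 (1.64 ± 0.275, adjusted p = 0.00162) and Mrpl12 (1.63 ± 0.226, adjusted p = 0.000573). Mrpl17, a bacterial-type large subunit protein, differed by 1.39 ± 0.176 (adjusted p = 0.000338), with 64.3 and 70 CPM in imiquimod and 29.6 and 31.3 CPM in control libraries at day 6 and 40.1 and 41.8 CPM in imiquimod and 45.9 and 51.5 CPM in control libraries at day 30. Mrpl42 differed by 1.38 ± 0.231 (adjusted p = 0.00159) and Mrpl36, a zinc-binding protein of the large subunit, by 1.37 ± 0.209 (adjusted p = 0.00104). The count was 34 without day 30 imiquimod library 2, 37 without both day 30 libraries numbered 1, 30 with library totals alone and 18 when only the comparison's own groups were fitted.

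**Figure D3:**
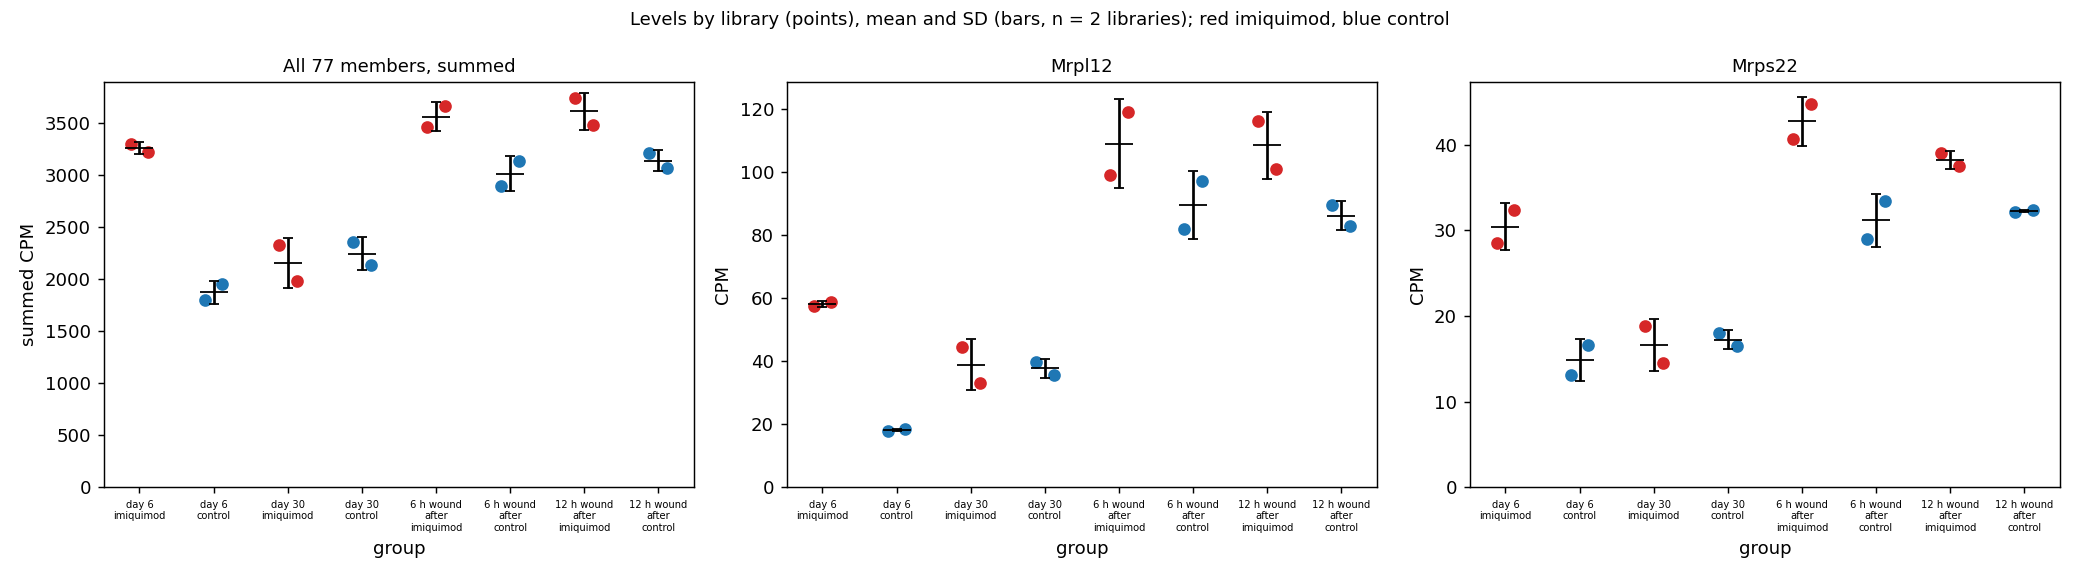
Summed level of the 77 members, and levels of Mrpl12 and Mrps22 (y axes, CPM), in each library of the 8 groups; points are libraries, and bars show the mean ± SD of 2. The sum is 3296 and 3217 CPM with imiquimod and 1797 and 1953 CPM with control cream at day 6, and 2894 CPM in the lowest wound library.

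Wounding raised 37 of 77 members in control skin at either time. Summed levels were 2894 and 3133 CPM at 6 h and 3207 and 3070 CPM at 12 h in wounded control skin, against 2356 and 2132 CPM in unwounded control skin. At 6 h 1 other member fell, or 6 with the replicate block, where 18.0% of all genes rose and 16.7% fell, with a median log2 change of 0.41 against 0.01 over all genes; 65 of 77 members were higher, as were 50.6% of all genes. Both 6 h libraries lay above both unwounded ones in 54 members and below in 10, against 33.9% and 31.4% of all genes. At 12 h 0 fell, where 16.5% and 14.3% of all genes did, with a median of 0.47 against 0.02; 71 members were higher, as were 50.9% of all genes. Both 12 h libraries lay above both unwounded ones in 65 members and below in 2, against 35.7% and 31.4% of all genes. The 6 h count was 23 without 6 h control library 2, and the 12 h count 22 without 12 h control library 1; the 6 h count was 21 when only its own groups were fitted, and the 12 h count 58 with library totals alone. Without both day 30 libraries numbered 1, the counts that rose were 36 at 6 h and 39 at 12 h.

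Mrps18b had 27.9 and 32.5 CPM at 6 h and 28.8 and 29.6 CPM at 12 h in wounded control skin, against 10.4 and 13.9 CPM in unwounded control skin. Its log2 change, 1.31 ± 0.205 at 6 h (adjusted p = 0.000454) and 1.26 ± 0.204 at 12 h (adjusted p = 0.000702), was the largest at 6 h among members that passed. Mrpl47 had 19.4 and 21 CPM at 6 h and 24.6 and 20.6 CPM at 12 h, against 8.75 and 8.55 CPM in unwounded control skin. At 1.22 ± 0.145 (adjusted p = 7.91e-05) and 1.39 ± 0.145 (adjusted p = 4.6e-05), it was the largest call at 12 h. Mrpl12 had 81.8 and 97.2 CPM at 6 h and 89.4 and 82.8 CPM at 12 h, against 39.8 and 35.5 CPM in unwounded control skin (1.25 ± 0.16, adjusted p = 0.000127, and 1.20 ± 0.16, adjusted p = 0.000215). In none of these 3 genes did wounded and unwounded libraries overlap. Mrpl18, a large subunit protein that binds 5S rRNA in bacteria, had 41.7 and 36.7 CPM at 12 h against 17.2 and 15.4 CPM unwounded (1.27 ± 0.143, adjusted p = 7.34e-05). Mrps2, a bacterial-type small subunit protein, had 36.1 and 44.3 CPM at 6 h against 15.8 and 20.9 CPM unwounded (1.12 ± 0.158, adjusted p = 0.000216), and at 12 h its change was 1.07 ± 0.158 (adjusted p = 0.000378). Mrpl19, of the interface between the subunits, rose at 6 h by 1.08 ± 0.127 (adjusted p = 7.56e-05), and Mrps25, a mitochondrial small subunit protein, at 12 h by 1.01 ± 0.176 (adjusted p = 0.00106).

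By role, mitochondrial small subunit proteins had the highest medians in control wounds, 0.79 at 6 h with 8 of 10 up and 0.84 at 12 h with 7 of 10 up. Small subunit proteins with a bacterial counterpart had the lowest, 0.29 at 6 h with 5 of 16 up and 0.34 at 12 h with 3 of 16 up; with the replicate block 8 rose at either time, and without day 30 control library 2 or 6 h control library 2 the 6 h count was 3. Bacterial-type large subunit proteins had medians of 0.42 and 0.48 and mitochondrial ones of 0.41 and 0.47. Of all genes 18.0% rose at 6 h and 16.5% at 12 h, so 3 of 16 at 12 h is close to the share of all genes. Whether the roles differ was not tested. Mrps34, which did not pass, had 15.3 and 19.5 CPM at 6 h and 5.49 and 15.1 CPM at 12 h in wounded control skin, against 5.25 and 5.13 CPM unwounded, without overlap.

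Mrpl14 went the other way. This protein, which lies at the subunit interface and binds the assembly factor MALSU1 in human ribosomes, had 23.4 and 22.7 CPM at 6 h and 27.7 and 25.6 CPM at 12 h in wounded control skin, against 34.9 and 33.7 CPM unwounded. It fell by 0.57 ± 0.137 on the log2 scale at 6 h (adjusted p = 0.00613), the 1 member that fell in the fit without the replicate block, where 6 fell with it; the 12 h change was -0.37 (adjusted p = 0.0576). In post-imiquimod skin it had 24 and 24.5 CPM at 6 h and 31.9 and 25.7 CPM at 12 h, against 35.2 and 31.5 CPM unwounded, and fell at 6 h by 0.46 ± 0.137 (adjusted p = 0.0175). Libraries did not overlap at 6 h in either skin. The 6 h call was lost without 6 h control library 2 in control skin, and in post-imiquimod skin without either 6 h library or without day 30 imiquimod library 1. Mrpl14 overlaps Tmem63b in the annotation, and counts were made without strand.

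In post-imiquimod skin the same wounds were set against unwounded post-imiquimod skin. Summed levels were 3463 and 3661 CPM at 6 h and 3737 and 3485 CPM at 12 h in wounded post-imiquimod skin, against 2326 and 1983 CPM unwounded. At 6 h 56 members rose and 1 fell, where 20.1% and 18.6% of all genes did, with a median log2 change of 0.75. At 12 h 60 rose and 0 fell, where 20.3% and 17.3% of all genes did, with a median of 0.76. Without both day 30 libraries numbered 1, the counts that rose were 54 at 6 h and 58 at 12 h. Mrpl47 had 25.8 and 26.6 CPM at 6 h and 26.1 and 25.3 CPM at 12 h, against 9.28 and 8.33 CPM unwounded, and was the largest call at both times (1.58 ± 0.146, adjusted p = 1.18e-05, and 1.55 ± 0.145, adjusted p = 1.48e-05). Mrpl12 had 99 and 119 CPM at 6 h and 116 and 101 CPM at 12 h, against 44.5 and 33.1 CPM unwounded (1.49 ± 0.161 at both, adjusted p = 2.81e-05 and 3.78e-05). Mrps22 had 40.7 and 44.8 CPM at 6 h and 39 and 37.5 CPM at 12 h, against 18.8 and 14.5 CPM unwounded (1.36 ± 0.165, adjusted p = 5.93e-05, and 1.20 ± 0.164, adjusted p = 0.000151). No wounded library of these 3 genes overlapped an unwounded one. Mrps25 rose by 1.35 ± 0.177 at 6 h (adjusted p = 0.000102) and by 1.40 ± 0.177 at 12 h (adjusted p = 9.22e-05), Mrpl15, a core large subunit protein, by 1.28 ± 0.124 at 6 h (adjusted p = 1.62e-05), and Mrpl18 by 1.32 ± 0.143 at 12 h (adjusted p = 3.67e-05).

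Cell type markers moved with wounding in both skins. Hair follicle markers summed to 1280 to 2530 CPM in the 8 wound libraries, against 5650 to 10800 CPM in the 4 unwounded day 30 libraries. Of these 5 markers, each wound comparison had 2 or 3 lower in both wounded libraries and 1 or 2 higher in both. Suprabasal markers summed to 4680 to 8490 CPM in wounds, against 14700 to 28200 CPM unwounded. Of these 5 markers, 3 or 4 were lower in both and 0 higher in both. Of 8 macrophage markers 6 were higher in both wounded libraries than in both unwounded ones in every wound comparison, with sums of 5.48 to 14.7 CPM in wounds against 1.5 to 2.03 CPM unwounded. In post-imiquimod skin 1 of the 8 was lower in both wounded libraries at 6 h and 1 at 12 h, and in control skin 0 were. Langerhans and dendritic markers summed to 353 and 405 CPM at 6 h, against 172 and 143 CPM unwounded, in post-imiquimod skin, and to 377 and 494 CPM against 197 and 147 CPM in control skin, with 2 of 4 higher in both libraries in each. Fibroblast markers summed to 53.3 and 20.4 CPM in 6 h control wounds, against 2.22 and 3.98 CPM unwounded, with 5 of 6 higher in both. The proliferation genes had medians of 0.03 at 6 h and -0.21 at 12 h in control wounds. The part of these markers in the members' levels was not tested.

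Post-imiquimod wounds had higher levels of nearly every member than control wounds, but no member passed the test. At 6 h 76 of 77 members were higher in post-imiquimod wounds, as were 49.0% of all genes, with a median log2 difference of 0.24 against -0.01 over all genes. In 66 members both post-imiquimod libraries lay above both control libraries and in 1 below, where 19.4% and 17.2% of all genes did. edgeR and DESeq2 each called 0 members, where 0.0231% of all genes rose and 0.0116% fell; at an unadjusted p under 0.05, edgeR gave 15 higher and 0 lower, against 2.78% and 3.53% of all genes. At 12 h 76 members were higher, as were 50.5% of all genes, with a median of 0.19 against 0.00256 over all genes. Both post-imiquimod libraries were above both control libraries in 54 members and below in 0, against 20.4% and 19.8% of all genes. Again edgeR and DESeq2 called 0 members, where 0% of all genes passed in either direction, and edgeR gave 3 higher and 0 lower at an unadjusted p under 0.05, against 0.948% and 1.51% of all genes. Members share libraries, so their agreement in direction is not 77 separate observations.

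Mrps22 had 40.7 and 44.8 CPM in post-imiquimod and 29 and 33.4 CPM in control wounds at 6 h (log2 difference 0.45 ± 0.161, adjusted p = 0.576), and 39 and 37.5 CPM in post-imiquimod and 32.2 and 32.4 CPM in control wounds at 12 h (0.24 ± 0.16, adjusted p = 1). Mrpl12 differed by 0.29 ± 0.157 at 6 h (adjusted p = 0.875) and by 0.34 ± 0.157 at 12 h (adjusted p = 1). Mrpl47 differed by 0.38 ± 0.14 at 6 h (adjusted p = 0.646) and by 0.19 ± 0.14 at 12 h (adjusted p = 1). In Mrps22 and Mrpl12 the groups did not overlap at either time, but neither passed.

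The change of the wound response with prior imiquimod, which takes the unwounded difference into account, was positive in 74 of 77 members at 6 h and in 74 at 12 h, as were 50.5% and 52.0% of all genes, with medians of 0.30 and 0.23 against 0.00548 and 0.02 over all genes. edgeR and DESeq2 called 0 members at either time, where 0% of all genes passed in either direction; at an unadjusted p under 0.05, edgeR gave 11 positive and 1 negative at 6 h, against 2.98% and 3.13% of all genes, and 6 and 0 at 12 h, against 1.33% and 1.58%. So 56 members rose after 6 h of wounding in post-imiquimod skin and 37 in control skin, but a difference between those responses was not detected for any member.

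Between 12 h and 6 h wounds edgeR called 0 members in control skin, where 0.486% of all genes were higher at 12 h and 0.162% lower, and 0 in post-imiquimod skin, where 0.150% and 0.0231% of all genes were. At an unadjusted p under 0.05, 10 members were higher and 0 lower at 12 h in control skin, against 7.55% and 6.21% of all genes, and 5 and 0 in post-imiquimod skin, against 6.69% and 4.05%. DESeq2 called 2 members higher in control skin and 1 in post-imiquimod skin. With the replicate block, 6 members were higher and 1 was lower at 12 h in control skin. The adjusted shares of all genes above are from the fit without the block. Those under DESeq2 and with the block are not given here. Mrpl58 had 24.2 and 22.8 CPM at 12 h and 15.1 and 14.9 CPM at 6 h in control skin, and 31.9 and 28.5 CPM at 12 h and 18.9 and 15.4 CPM at 6 h in post-imiquimod skin, with no overlap in either.

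**Figure D4:**
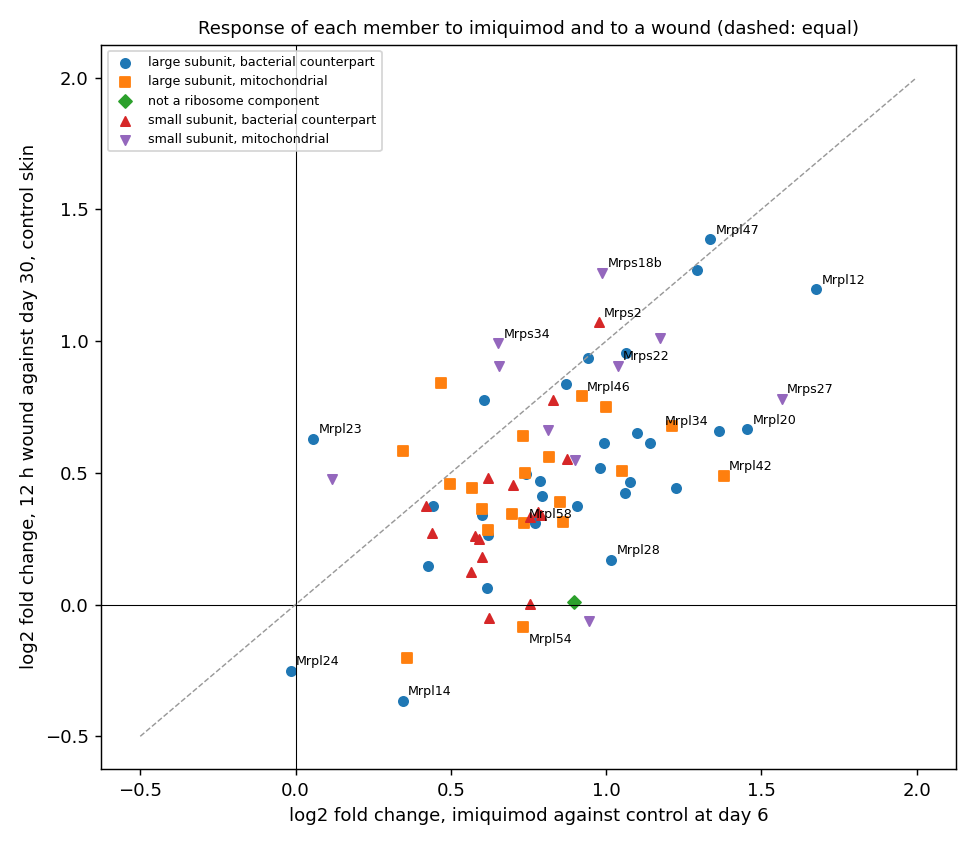
Log2 change of each member with imiquimod at day 6 (x axis) and 12 h after wounding in control skin (y axis). A chosen set of members is named, with large and small changes among them. Nearly all members lie above 0 on both axes, and across the 77 members Pearson's r is 0.526.

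The day 6 response and the 12 h wound response of control skin share no library. Across the 77 members the log2 changes at day 6 and at 12 h of wounding had Pearson's r = 0.526 and Spearman's rho = 0.523, and over all 17299 genes r was 0.435; genes are not independent replicates. Of the 70 members that rose at day 6, 29 rose in all 4 wound comparisons. Another 9 rose in none of them: Mrpl27, Mrpl28, Mrpl33, Mrpl4, Mrps16, Mrps21, Mrps24, Mrps33 and Mrps36. The share of all genes with such joint patterns was not counted. Wound comparisons within a skin share their unwounded libraries, so they are not separate observations. Mrpl23, Mrpl52 and Mrps31 rose in at least 1 wound comparison and not at day 6. Mrpl52 had 97.1 and 112 CPM at 6 h in wounded control skin, against 79.3 and 51.9 CPM unwounded (0.67 ± 0.199, adjusted p = 0.0194), a call lost without day 30 control library 2 or 6 h control library 2. Mrpl24, Mrpl48 and Mrps34 passed in none of the 5 comparisons.

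A test of the day 6 effect against the 12 h wound response in control skin was added after these values had been seen. It was larger at day 6 in 7 members and smaller in 0, where 5.95% and 5.24% of all genes passed. Scaled by library totals alone, 0 members were larger and 1 was smaller and the member median became -0.07, and with only the comparison's own groups fitted 0 passed. The members were Mrpl42 (0.89 ± 0.229, adjusted p = 0.0271), Mrpl28 (0.85 ± 0.21, adjusted p = 0.0226), Mrpl54 (0.82 ± 0.219, adjusted p = 0.0317), Mrpl36 (0.78 ± 0.208, adjusted p = 0.0307), Mrps27 (0.78 ± 0.215, adjusted p = 0.0353), Mrps21 (0.75 ± 0.197, adjusted p = 0.0289) and Mrpl14. Mrpl28, a bacterial-type large subunit protein, had 71.8 and 56.9 CPM with imiquimod and 32.5 and 31.1 CPM with control cream at day 6, and 54.6 and 49 CPM at 12 h against 44.5 and 47.5 CPM unwounded. The count was 0 without day 6 control library 1 or either 12 h control library, 1 without day 30 control library 1 and 2 without any other day 6 library, and 22 with the replicate block.

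**Figure D5:**
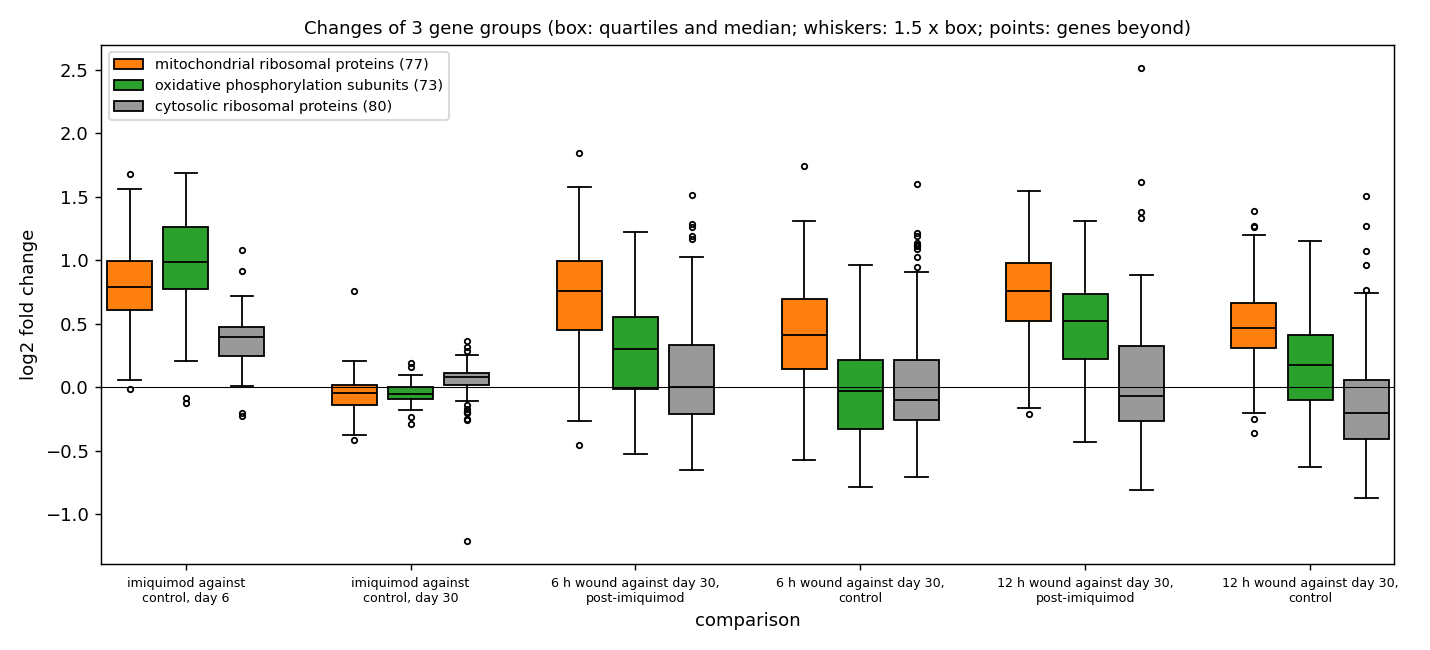
Log2 changes (y axis) of 77 mitochondrial ribosomal protein genes, 73 nuclear-encoded oxidative phosphorylation subunits and 80 cytosolic ribosomal protein genes in 6 comparisons, as boxes with median, quartiles and whiskers. At day 6 the medians are 0.79, 0.98 and 0.39, and in 12 h control wounds 0.47, 0.17 and -0.20.

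Other mitochondrial genes were described by lists, whose counts stand beside the shares of all genes given above: 21.6% rose and 15.0% fell at day 6, and in control wounds 18.0% rose and 16.7% fell at 6 h and 16.5% rose and 14.3% fell at 12 h. Differences between lists were not tested. Among 73 nuclear-encoded subunits of oxidative phosphorylation, 65, or 89%, rose and 0 fell at day 6, with a median log2 change of 0.98; Sdhd of complex II, which is wholly nuclear-encoded, rose by 1.69 ± 0.172, and Cyc1 of complex III, which also needs a subunit made on mitochondrial ribosomes, by 1.67 ± 0.149 (adjusted p = 1e-05). At 6 h in control wounds 8, or 11%, rose and 7 fell, with a median of -0.03, and at 12 h 14, or 19.2%, rose and 2 fell, with a median of 0.17. The 6 h counts were 13 up and 19 down with the replicate block, and without any 1 of the 4 libraries 2 to 5 rose and 1 to 11 fell; the 12 h count of 14 was 29 with the block and 5 without day 30 control library 2, 7 without 12 h control library 1 and 8 without 12 h control library 2. In post-imiquimod wounds 25 of the 73 rose at 6 h, where 20.1% of all genes rose and 18.6% fell. At 12 h 39 rose, where 20.3% of all genes rose and 17.3% fell. The numbers of subunits that fell in post-imiquimod wounds are not given here. The 6 h count was 12 or 13 without day 30 imiquimod library 2 or either 6 h library. The 12 h count was 16 without day 30 imiquimod library 2 and 22 without 12 h post-imiquimod library 1.

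Cytosolic ribosomal proteins, which build the ribosomes outside the organelle, had 9 of 80 members, or 11.2%, up and 0 down at day 6, below the 21.6% of all genes, with a median of 0.39. That count was 1 without day 6 control library 1 or imiquimod library 2, and 55 with the replicate block. In 12 h control wounds 7, or 8.75%, rose and 4 fell, with a median of -0.20; with the block 15 rose and 25 fell, without day 30 control library 2 or 12 h control library 2 only 1 rose, and without day 30 control library 1 or either 12 h control library 0 fell, and without day 30 control library 2 there were 8 that fell. Of 6 mitochondrial ribosomal proteins under other symbols, such as Gadd45gip1, 5 rose at day 6, with a median of 0.77, and 4 at 12 h in control wounds, with a median of 0.71. Those counts were 3 without day 6 control library 1, and 1 without day 30 control library 2 and 2 without 12 h control library 2.

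Among 18 mitochondrial translation factors 7, or 38.9%, rose and 0 fell at day 6, with a median of 0.11, led by the elongation factors Tufm (1.31 ± 0.168, adjusted p = 9.73e-05) and Gfm1 (1.24 ± 0.151, adjusted p = 6.92e-05). In 12 h control wounds 8, or 44.4%, rose, with a median of 0.36, and 5 or 4 did without 12 h control library 1 or 2. Among 26 mitoribosome assembly factors 6, or 23.1%, rose at day 6, close to the 21.6% of all genes, with a median of 0.18; the helicase Ddx28 had the largest change (1.39 ± 0.335, adjusted p = 0.00609), and 3 rose without day 6 control library 1. In 12 h control wounds 11 of them, or 42.3%, rose and 2 fell, with a median of 0.38; the rRNA methyltransferase Mrm2 rose by 1.90 ± 0.36, and 4 to 7 rose when any 1 of the 4 libraries was left out, while 0 fell without day 30 control library 1 or 12 h control library 1 and 1 without 12 h control library 2. Of 20 mitochondrial aminoacyl-tRNA synthetases 10, or 50%, rose at day 6, with a median of 0.47, and 8, or 40%, in 12 h control wounds, with a median of 0.27. The first count was 6 without day 6 control library 2 or imiquimod library 1, and the second 5 without 12 h control library 2.

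Of 15 genes of mitochondrial DNA transcription and upkeep 7, or 46.7%, rose and 1 fell at day 6, with a median of 0.42, and 7 rose in 12 h control wounds, with a median of 0.52. The day 6 count was 3 without control library 1 and 2 without control library 2 or imiquimod library 1. The gene that fell was Polg2, the accessory subunit of the mitochondrial DNA polymerase (-0.92 ± 0.224, adjusted p = 0.00633), a call lost without imiquimod library 2. The RNAs transcribed from mitochondrial DNA did not pass at day 6. Of 13 mitochondrially encoded mRNAs 9 were tested, and edgeR called 0, where 21.6% of all genes rose and 15.0% fell. At an unadjusted p under 0.05 edgeR gave 2 of the 9 higher, a rule that at least 21.6% of all genes met in that direction. One of the 9, mt-Co2, passed the filter on low counts only through day 6, with 1.18 and 0.159 CPM with imiquimod and 0.247 and 0.0601 CPM with control cream, and was at 0 in every later library; it is left out of the ranges that follow. The day 6 log2 changes of the others ran from 0.85 in mt-Nd4 to 1.37 in mt-Nd1. Mitochondrially encoded mRNAs made up 7.53% and 1.76% of counts with imiquimod and 3.26% and 1.41% with control cream, so the groups overlapped. In control wounds the log2 changes of the mRNAs other than mt-Co2 ran from -0.91 in mt-Nd4 to -0.46 in mt-Nd1 at 6 h and from -0.81 in mt-Nd4 to -0.11 in mt-Nd3 at 12 h, with 0 called and 0 at an unadjusted p under 0.05.

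Of 9 regulators of mitochondrial biogenesis 5 rose and 1 fell at day 6. The coactivator Ppargc1b rose by 1.35 ± 0.265 (adjusted p = 0.00161), the nuclear receptor Esrra by 0.80 and Nrf1, whose motif is shown above, by 0.58 (adjusted p = 0.00562). Ppargc1a fell by 1.64 ± 0.55 (adjusted p = 0.032), a call lost without any 1 of the 4 day 6 libraries, and the count that rose was 2 without control library 2 and 3 without imiquimod library 2. In 12 h control wounds Ppargc1b rose by 0.92, a call lost without day 30 control library 1 or either 12 h control library, and Myc fell by 2.07 ± 0.254 (adjusted p = 0.000122). The median log2 change of the 33 members with an NRF1 or ETS motif was 0.79, against 0.78 in the 35 without, at day 6. It was 0.49 against 0.40 at 6 h and 0.51 against 0.44 at 12 h in control wounds, and 0.79 against 0.65 at 6 h and 0.75 against 0.70 at 12 h in post-imiquimod wounds. Whether they differ was not tested.

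Starts close to that of a gene on the opposite strand were common. Whether such pairs share a promoter was not tested. Of 68 members 23, or 33.8%, start within 1000 bases of a gene on the opposite strand that points away, against 7.52% of all protein-coding genes. Mrps11 and Mrpl46 are such a pair, 42 bases apart. At day 6 Mrpl46 had 28.8 and 26.3 CPM with imiquimod and 14.4 and 14.8 CPM with control cream (0.92 ± 0.146, adjusted p = 0.000396), and Mrps11 had 18.4 and 14.6 CPM with imiquimod and 10.6 and 11.5 CPM with control cream (0.58 ± 0.171, adjusted p = 0.0176), the second a call lost without either control library or imiquimod library 1. The other 21 partners are outside the family: 8 rose and 1 fell at day 6, with a median log2 change of 0.02. Of all genes 21.6% rose and 15.0% fell. Of the 21 members beside these partners 20 rose, with a median of 0.79. Sars2, a mitochondrial seryl-tRNA synthetase 147 bases from Mrps12, rose by 0.84, and Ndufb5, a complex I subunit 308 bases from Mrpl47, by 1.00. The others that rose were Eme1 by 1.30, Ska3 by 1.28, Ptcd2 by 1.19, Psma2 by 0.93, Ncapd2 by 0.88 and Tcp1 by 0.86. Eme1, Ska3 and Tcp1 overlap their members in the annotation. Klc4, a kinesin light chain 141 bases from Mrpl2, fell by 1.34 ± 0.254 (adjusted p = 0.00131), whereas Mrpl2 rose by 0.44. Mrpl2 and Klc4 overlap in the annotation, and counts were made without strand.

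Over all 8 groups, the highest group mean was in 6 h post-imiquimod wounds for 30 members, in 12 h post-imiquimod wounds for 23 and in day 6 imiquimod skin for 22. The lowest was in day 6 control skin for 54 members. Highest and lowest groups were not counted over all genes, so these counts have no share to stand beside. Day 6 libraries came from another time than the rest, and whether their levels differ for that reason was not tested.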

How the data were processed

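RNA from sorted epidermal cells (Trizol, Zymo columns, TruSeq libraries) was analysed from the per-gene read counts the authors deposited, 1 table per library, with the unstranded column used. The submitters' processing notes name STAR, Bowtie and the build mm10, with no role or version; other settings were not stated. Depth was 23623968 to 76993427 counts per library.

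Of 47729 identifiers 47224 had a symbol and 30802 a read; 17299 passed edgeR's filterByExpr. Counts were tested with edgeR 4.0.16 (TMM, robust quasi-likelihood fit of 8 group means over 16 libraries, 8 residual degrees of freedom) in R 4.3.3, adjusted over all genes tested, with a threshold of 0.05; SE is the absolute log2 change over the square root of F. The biological coefficient of variation was 23%. An exact permutation test of 2 against 2 libraries cannot go below p = 0.333. The scripts were tested on simulated counts. Alternatives were DESeq2 1.42.0, other scalings and filters, thinning, each comparison's groups alone, libraries left out and the replicate number as a block within each time. Same-numbered libraries deviated together over all genes (r = 0.186 at day 6, 0.688 at day 30, 0.623 at 6 h and 0.272 at 12 h). Over the 77 members alone r was 0.813 at day 6, 0.58 at day 30, 0.565 at 6 h and 0.706 at 12 h. Between time points r over all genes ran from -0.184 to 0.166, with a median of 0.00197. The day 6 value over all genes was only just above that range, which was not computed for the members alone. At day 30 the libraries numbered 1 also share Y-linked reads. The labels do not say what same-numbered libraries share, so the block is an alternative and the pairing is not known.

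The members and lists were chosen with earlier results of these data known. Named members were the 6 largest called changes per direction without overlap, those against the majority, those nearest the level limit, a panel of 14, and up to 3 per direction from each list; Mrpl17, Mrpl24, Mrpl46, Mrpl48, Mrpl52, Mrps11, Mrps31 and Mrps34 and the head-to-head partners were named after values were seen or as members outside a count. A planned ranking by length-scaled level was not made, since exon lengths were not used here. Spans of 24 members overlap another gene (19 a protein-coding one), and 3 members have named pseudogenes, so their counts are uncertain.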

Additional observations from a re-analysis of the deposited data

Results flagged for a closer look

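The effect of imiquimod differed between day 6 and day 30 by a test of the difference itself in 56 members, each with the larger effect at day 6, where 13.7% of all genes differed in that direction and 8.82% in the other. The count was 30 with library totals alone and 18 when only the comparison's own groups were fitted. The largest of the named differences, on the log2 scale, were Mrps27 at 1.64, Mrpl20 at 1.64, Mrpl12 at 1.63, Mrpl17 at 1.39, Mrpl42 at 1.38 and Mrpl36 at 1.37. The effect of imiquimod at day 6 also differed from the 12 h wound response of control skin in 7 members, in a comparison added after values had been seen, where 5.95% of all genes were larger at day 6 and 5.24% smaller. Library totals alone gave 0 members larger and 1 smaller. The named differences were Mrpl42 at 0.89, Mrpl28 at 0.85, Mrpl54 at 0.82, Mrpl36 at 0.78, Mrps27 at 0.78 and Mrps21 at 0.75, and without day 6 control library 1 the count of members was 0.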

How the results depend on the processing

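Leaving out 1 library gave 48 to 60 members up at day 6 and 34 to 49 with a larger effect at day 6 than at day 30; 23 to 35 up and 0 to 3 down at 6 h and 22 to 34 up at 12 h in control wounds; 39 to 53 up and 0 to 1 down at 6 h and 45 to 57 up at 12 h in post-imiquimod wounds; and 0 to 7 for the day 6 effect over the 12 h wound response. Fitting only a comparison's own groups gave 44 up at day 6, 21 up and 0 down in 6 h control wounds, 0 down in 6 h post-imiquimod wounds, 18 for day 6 over day 30 and 0 for day 6 over the wound response. The replicate block gave 6 members up and 1 down for 12 h over 6 h in control skin, 1 up in post-imiquimod skin, 1 down in 12 h and 6 down in 6 h control wounds, and 22 for day 6 over the wound response; it moved no other count of members over 1.5 times. Library totals alone, which moved the median of all genes at day 6 from 0.10 to -0.11, and in 12 h control wounds from 0.02 to 0.21, gave 58 up in 12 h control wounds, 30 for day 6 over day 30, and 0 up and 1 down for day 6 over the wound response, whose member median became -0.07; the member median at day 6 was then 0.57. No filter gave 1 for 12 h over 6 h in post-imiquimod skin, 0 down at 6 h in both skins and 2 for day 6 over the wound response. Thinning to the smallest library gave 1 for 12 h over 6 h in post-imiquimod skin, 1 down in 12 h and 2 down in 6 h control wounds, and 4 for day 6 over the wound response; RLE scaling and DESeq2 each gave 1 down in 12 h control wounds, and DESeq2 2 and 1 up for 12 h over 6 h in control and post-imiquimod skin. Without both day 6 libraries numbered 1, 42 rose at day 6; without both day 30 libraries numbered 1, counts were 37 for day 6 over day 30, 0 down in 6 h post-imiquimod wounds and 2 for day 6 over the wound response. The cause was not tested, and the shares of all genes called under these alternatives are not given here. Of 1532 alternative values of 112 named member values, 1308 kept direction and side of the threshold, 221 kept direction and lost the call, and 3 kept direction and gained it. Thinning moved no other count of members over 1.5 times, and the lowest count of any member in a library was 26.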

Other observations

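Mrpl23 and Mrps36 had higher levels in all 4 day 6 libraries, whatever the treatment, than in any of the 12 others, a pattern of 934 of 17299 genes tested and of no other member. Mrpl23, a protein at the exit of the peptide tunnel, had 10.7 and 10.3 CPM with imiquimod and 8.66 and 11.6 CPM with control cream at day 6, and 0.944 to 2.35 CPM in the later libraries. Mrps36 had 10.4 and 9.2 CPM with imiquimod and 5.46 and 5.08 CPM with control cream at day 6, and 2.18 to 3.5 CPM later. Both have named pseudogenes. Mrpl23-ps1 was at 0.548 to 1.38 CPM at day 6 and at 0.0845 to 0.367 CPM later, and Mrps36-ps1 at 0.12 to 0.285 CPM at day 6 and at 0 in every later library. The third member with a named pseudogene, Mrpl48, was not apart, while Mrpl48-ps was at 0.619 to 1.02 CPM at day 6 and at 0 to 0.473 CPM later. Their part in the counts of the parent genes was not tested.

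Mrps34, a mitochondrial small subunit protein, varied widely between libraries of a group at day 6 and at 12 h. It had 1.9 and 12.2 CPM with imiquimod and 1.54 and 7.48 CPM with control cream at day 6. It had 9.7 and 17.9 CPM in post-imiquimod and 5.49 and 15.1 CPM in control wounds at 12 h, but 18.1 and 21.6 CPM in post-imiquimod and 15.3 and 19.5 CPM in control wounds at 6 h. At day 30 its libraries were close, at 5.52 and 5.47 CPM with imiquimod and 5.25 and 5.13 CPM with control cream. At day 6 and at 12 h both libraries numbered 1 were lower than both libraries numbered 2.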
